A study of Mus musculus with 16 samples.

Results

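J2 is a mouse monoclonal antibody (IgG2a kappa) that binds double-stranded RNA, and it was used to split testis RNA into a bound fraction (J2) and the unbound remainder (flow-through). The comparison described here is J2 against flow-through in mouse testis labelled Dicer knock-out at postnatal day 18 (P18), with 3 libraries per fraction. Its members are the genes with a value of at least 10 in at least 2 of these 6 libraries, which were 6200 of the 35920 genes in the table. Values are the authors' normalized counts, called units below.

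The knock-out mice carry the genotype Dcr-/- on a C57BL/6 x 129S4/SvJae background, and the wild-type P18 mice share that background and age. The labels do not say which promoter or cell type drove the deletion, and whole testis was used, so cells that retain Dicer may be present. The flow-through RNA is described as depleted of rRNA and of double-stranded RNA, whereas no rRNA depletion is stated for J2. Wild-type P18 testis was fractionated in the same way (3 libraries per fraction), and adult testis (2 per fraction) entered only the estimate of the spread. Each J2 library has a flow-through library with the same code, and separate animals are not stated, so a p-value reflects only how far these libraries vary among themselves, possibly for technical reasons.

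Double-stranded RNA forms when a transcript folds back on itself or pairs with an antisense transcript, and J2 recognizes such helices without regard to sequence once they are long enough. Dicer is the RNase that cuts microRNA precursors and long double-stranded RNA into small RNAs. In the testis it is needed in germ cells and in Sertoli cells, the somatic cells that nurse them. At P18 the first wave of mouse germ cells is in meiosis, before elongated spermatids have formed.

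Dicer1 itself was not among the members, because its values were too low in both fractions. Knock-out flow-through held 0, 3.68 and 8.33 units and knock-out J2 held 3.39, 0 and 0. Wild-type flow-through held 5.10, 12.4 and 0 units and wild-type J2 held 11.3, 0 and 8.64. The genotypes overlapped, and gene totals do not show whether a deleted exon was missing, so these values do not check the genotype label.

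Among features with a value of at least 10 in both fractions, the largest differences were at loci annotated as microRNAs. The mature sequences that RefSeq (GRCm38.p6) gives for the 2 called loci are shown with their seeds, bases 2 to 8 from the 5′ end, in capitals. The Mir6236 sequence lies at chr9:110281353-110281371 and the Mir6240 sequence at chr5:114851973-114851998, both on the plus strand.
mmu-miR-6236: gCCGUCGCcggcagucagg
mmu-miR-6240: cCAAAGCAucgcgaaggcccacggcg
The seeds differ, and 78.95% and 69.23% of the bases are G or C. Of 1188 microRNA loci in the table, 3 were members, and 1161 were at 0 in all 6 knock-out libraries. The loci of Mir6236 and Mir6240 span 123 and 117 bases, and both are on the list of dominant features described below. Whether their reads came from mature microRNAs was not tested, so the sequences serve only to identify the loci.

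Among all members, limma on log2(units + 1) called 32 genes higher in J2 (0.516% of those tested) and 22 lower (0.355%) at an adjusted p of 0.05. The values of J2 lay wholly above those of flow-through for 551 genes (8.89%) and wholly below for 798 (12.9%). The higher calls with the largest changes were Gm24601, the U3 identifiers and Snora24, and 6 of the 32 were ribosomal protein mRNAs, with 2 respiratory chain subunits and 1 proteasome subunit. The lower calls included both mitochondrial rRNAs, 2 mitochondrial mRNAs and 2 microRNA loci. The median log2 change of all 6200 genes was -0.22, so changes are relative to about the typical gene and are not amounts of RNA.

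How a gene passed the filter matters for its direction. Values of at least 10 in at least 2 libraries of both fractions were held by 2230 genes, with a median log2 change of 0.12. They gave 5 of the higher calls (0.224%) and 13 of the lower calls (0.583%), and their values separated upward for 242 genes (10.9%) and downward for 158 (7.09%). Another 1153 genes passed only through J2 (median 1.81), 1945 only through flow-through (median -1.82), and 872 through 1 library of each fraction (median -0.11). The other 27 higher calls passed only through J2 and the other 9 lower calls only through flow-through, so a difference in that direction was built into their selection.

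Depth differed between the fractions in a way that bears on every value. Each flow-through read was worth an estimated 2.04 to 8.11 units and each J2 read 0.22 to 0.516 units, which puts 1.23 to 4.9 reads behind a flow-through value of 10 and 19.4 to 45.6 behind the same value in J2. By this estimate the 3 flow-through libraries held 2.79 to 4.3 M reads and the 3 J2 libraries 1.6 to 2.6 M (M, 1e+06), and the 10 highest features took 96.09% to 98.83% of the units in flow-through against 65.73% to 67.51% in J2. Across members, Spearman's rho was 0.319 to 0.521 between libraries of one fraction and 0.112 to 0.277 across fractions. Every library was also set to a common total, counted without the genes encoded in mitochondrial DNA. This rescaling gave 2928 genes higher and 12 lower (99.6% of calls higher, against 59.3% here) and moved the median of all genes to 2.79. The number of higher calls varied with the libraries included, while each of the 32 changes kept its sign. It was 17 without flow-through replicate 1, 17 without replicate 2, 7 without replicate 3, 36 without J2 replicate 1, 6 without J2 replicate 2 and 3 without J2 replicate 3. Of the 32, 4 passed under no omission of a library, 10 under 1, 8 under 2, 6 under 3, 2 under 4, 1 under 5 and 1 under all 6. Of the 22 lower calls, 15 passed under all 6.

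**Figure D1:**
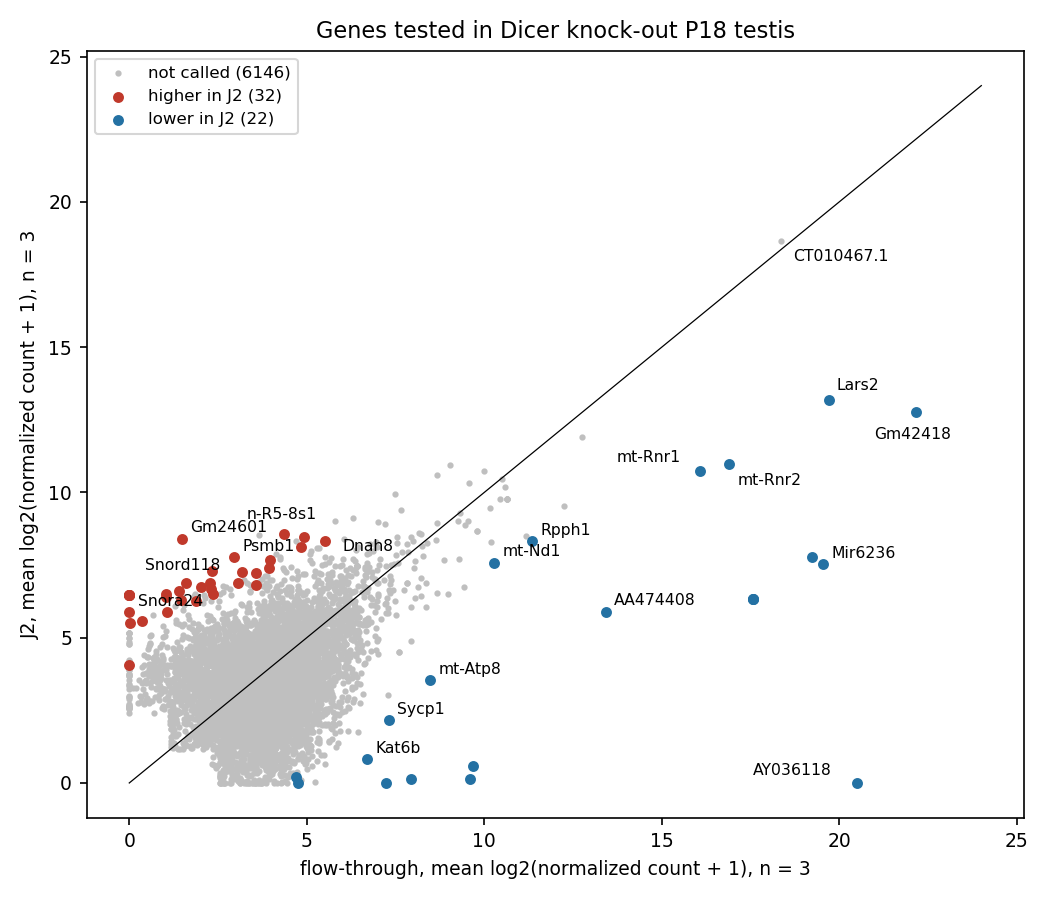
Mean log2(normalized count + 1) of the 6200 genes in flow-through (horizontal) and J2 (vertical) of Dicer knock-out P18 testis, 3 libraries each; the line marks equal values. The 22 lower calls reach up to the most abundant flow-through features, and the 32 higher calls lie near the low end of flow-through.

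Most of the features that dominated flow-through were far lower in J2 on the deposited scale. AY036118, annotated by RefSeq as a long noncoding RNA (lncRNA) at chr17:39848112-39898385 on the minus strand, held 3350930, 1141200 and 863750 units in flow-through and was listed at 0 in all 3 J2 libraries (adjusted p = 2.88e-24, limma). Gm42418, which RefSeq lists as a synonym of the 18S rRNA pseudogene Rn18s-rs5 at chr17:39846354-39848202, overlaps it at one end. Gm42418 held 5980860, 3954960 and 4251190 units in flow-through and 8416, 5122 and 7888 in J2, a log2 change of -9.38 ± 0.78 (SE). Quantile normalization brought this to -3.02 and ended the call (adjusted p = 0.256). Mir6236 held 1553600, 596318 and 481765 units in flow-through against 244, 167 and 148 in J2 (log2 change -12.02 ± 0.59). Mir6240 held 1306500, 470905 and 375979 units against 380, 131 and 203 (log2 change -11.47 ± 0.65). No value of J2 came near the flow-through range at these loci.

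Gm23935, Gm24245 and Gm24270 had nearly identical values in each library, 181036 to 217325 units for Gm23935 in the unbound RNA against 69.8 to 86.2 in J2, so they are best read as 1 signal (log2 change -11.23 ± 0.60 each). Gm24187 (log2 change -9.47), Gm25732 (-9.09) and Gm25911 (-7.81) held 226 to 976 units in flow-through and at most 0.78 in J2. AA474408 fell by 7.52 on the log2 scale, from 159051, 5343 and 1543 units in flow-through to 56.0, 41.4 and 86.3 in J2. Flow-through replicate 1 stood far above the other two for this feature. The lncRNA Gm15564 showed the same spread, with 1142, 85.9 and 34.0 units in flow-through, and was listed at 0 in J2 (adjusted p = 1.98e-04). Like AY036118, the features Gm24187, Gm25732, Gm25911 and Gm15564 passed the filter only through flow-through, so their direction was built into the selection.

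Lars2, the nuclear gene for the mitochondrial leucyl-tRNA synthetase, belonged to this set by its values. It held 21416600, 278978 and 103020 units in flow-through and a narrow 9342, 8747 and 9578 in J2 (log2 change -6.53 ± 1.09, adjusted p = 3.90e-04). Leaving out flow-through replicate 1 brought its change to -4.20, which still passed. Quantile normalization gave 0.70 (adjusted p = 0.828) and rescaling to a common total -2.28 (adjusted p = 0.103), so neither its direction nor its call held under every scaling. CT010467.1 was the most abundant feature of J2 and was not called. It held 142246, 416526 and 624625 units in flow-through and 348594, 399642 and 514227 in J2, and these ranges overlapped (log2 change 0.32 ± 0.71). The list of 8 dominant features was drawn from earlier results of these libraries, and its 6 lower calls are therefore a description.

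Mitochondrial transcripts made by the heavy strand promoter include both rRNAs and 12 of the 13 mRNAs, while mt-Nd6 is read from the opposite template. Both strands are transcribed almost end to end, and the resulting RNAs can pair. Both mitochondrial rRNAs fell in J2 on the deposited scale. The 12S rRNA gene mt-Rnr1 (MT, bases 70 to 1024) held 50455, 72940 and 88022 units in flow-through and 1568, 1806 and 1812 in J2, a log2 change of -5.31 ± 0.58. The 16S rRNA gene mt-Rnr2 (MT, bases 1094 to 2675) held 90695, 116461 and 172903 units against 1502, 2237 and 2416, a log2 change of -5.93 ± 0.69. Their direction depended on the scaling. Quantile normalization gave 0.77 for mt-Rnr1 and 0.80 for mt-Rnr2, neither called, and rescaling to a common total ended both calls (adjusted p = 0.254 and 0.126). Together they took 0.405% to 3.38% of the units in flow-through and 0.513% to 0.631% in J2.

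All 12 mRNAs of the heavy-strand set were members, of which 2 fell, none rose, and 7 lay wholly below and 1 wholly above flow-through. Of all members 0.355% fell and 0.516% rose, and 12.9% lay wholly below and 8.89% wholly above. The median log2 change of the set was -2.22, against -0.22 for all genes tested. As a share of all units the set was higher in J2, with 0.376% to 0.582% against 0.012% to 0.117% in flow-through. Rescaling to a common total turned mt-Nd1 to 1.51, below the median of all genes of 2.79 there and not called, and ended the call on mt-Atp8 (adjusted p = 0.53). The mRNA of ATP synthase subunit 8, mt-Atp8, held 175, 357 and 716 units in flow-through and 12.1, 4.61 and 20.6 in J2 (log2 change -4.93 ± 1.01, adjusted p = 7.89e-03, limma). That of complex I subunit 1, mt-Nd1, held 727, 1435 and 1864 units against 186, 154 and 243 (log2 change -2.70 ± 0.63, adjusted p = 0.0256). The call on mt-Nd1 was lost when any library other than flow-through replicate 1 was left out, and that on mt-Atp8 when flow-through replicate 3 or J2 replicate 2 was left out (adjusted p = 0.072 and 0.087). The cytochrome oxidase subunits differed among themselves. The mt-Co3 mRNA had 748, 1410 and 1547 units in flow-through and 341, 275 and 324 in J2 without passing (adjusted p = 0.168). In mt-Co1, by contrast, J2 held 1916, 1280 and 2009 units, all above the 898, 983 and 1181 of flow-through (log2 change 0.75 ± 0.69, adjusted p = 0.643). The complex I mRNA mt-Nd5 overlapped between fractions (log2 change -0.11 ± 0.70).

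The light-strand mRNA mt-Nd6 held 27.3, 46.4 and 85.8 units in flow-through and 130, 48.3 and 229 in the bound RNA. The lowest J2 value fell inside the flow-through range, and the log2 change of 1.22 ± 0.82 did not pass (adjusted p = 0.51). None of the 22 mitochondrial tRNAs reached the filter. Of 24 nuclear genes for mitochondrial RNA synthesis and decay, 12 were members and none was called, with a median of -0.70. The tRNA 3′-processing enzyme gene Elac2 held 5.17, 30.8 and 1.46 units in flow-through and 80.9, 21.6 and 45.8 in J2, overlapping in range (log2 change 2.50 ± 1.36).

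**Figure D2:**
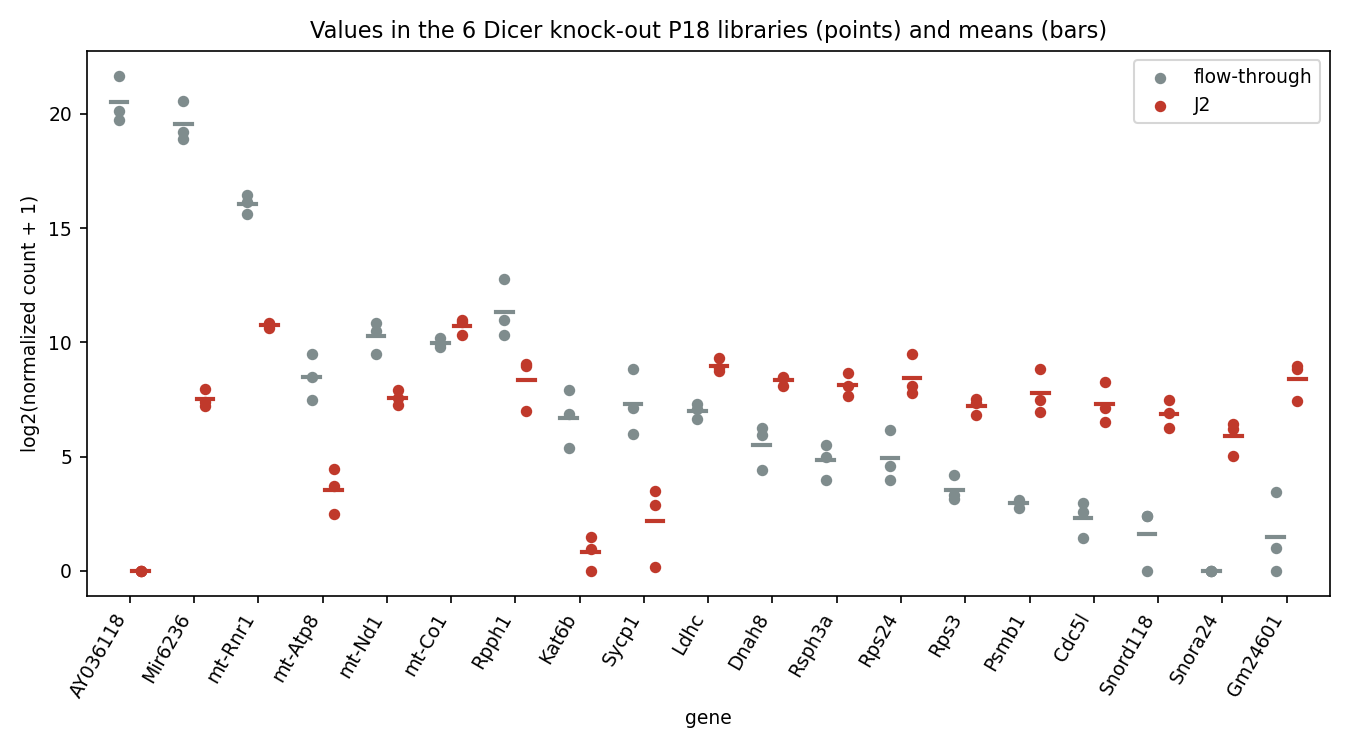
Values of 19 genes in the 6 libraries as log2(normalized count + 1), grey for flow-through and red for J2, points for libraries and bars for the mean of 3. The fractions separate completely for every gene shown, on the deposited scale downward for the rRNA, microRNA and most mitochondrial features and upward for Snora24, Snord118, Psmb1 and Rps24, with mt-Co1 and Ldhc separated but not called.

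Small structured RNAs did not move as one class. Gm24601 was not matched to RefSeq, so whether it belongs to these RNAs is not known here. It had the largest log2 change of the higher calls, with 9.83, 0 and 1.001 units in flow-through and 172, 453 and 500 in J2 (log2 change 6.93 ± 1.001, adjusted p = 2.74e-05, limma). It was the 1 higher call of the 32 that passed under every omission of a single knock-out library. Snord118, the U8 RNA that guides maturation of the 5.8S and 28S rRNAs, held 4.34, 4.33 and 0 units in flow-through and 76.3, 176 and 119 in J2 (log2 change 5.27 ± 1.10, adjusted p = 0.0107). The box H/ACA RNA Snora24, of the class that guides pseudouridylation, was listed at 0 in flow-through and held 31.8, 83.8 and 72.3 units in J2 (adjusted p = 0.0136). Gm24601, Snord118 and Snora24 each passed the filter only through J2, so their direction was built into the selection.

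Of 42 box H/ACA RNAs in the table, 8 were members, 1 rose and 5 lay wholly above flow-through. Of all members 0.516% rose and 8.89% lay wholly above. The 1 box H/ACA member measured in both fractions did not separate. Snora64 held 4.26, 0 and 1.70 units in flow-through and 21.7, 86.4 and 163 in J2 and missed the threshold (adjusted p = 0.0606). Snora73a overlapped between fractions at 5.57 to 16.9 and 11.5 to 19.2 units. Of 99 box C/D RNAs, which guide 2′-O-methylation, only 4 were members and Snord118 alone rose. Snord15b held 128, 42.8 and 23.7 units in flow-through against 55.8, 59.2 and 49.6 in J2. Of the 8 box H/ACA members 7 passed the filter only through J2, so their direction was built into the selection.

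U3, the RNA that base-pairs with the pre-rRNA for its first cleavages, appears in the table under repeated symbols. The 4 identifiers of Rnu3b1 to Rnu3b4 that share one set of values were listed at 0 in flow-through and held 51.0, 135 and 94.5 units in J2 (adjusted p = 0.0137 each). They make up 4 of the 32 higher calls but are 1 signal. All 4 passed the filter only through J2, so their direction was built into the selection. A second set of identifiers with the same symbols held 25.6, 10.1 and 8.33 units in flow-through and 0, 8.70 and 76.6 in J2 and was not called. Since reads of near-identical copies can be split either way, the U3 result is uncertain. Rnu3a lay above in J2, with 23.0, 48.0 and 106 units against 0, 17.1 and 5.92, without passing (adjusted p = 0.272).

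The 5.8S rRNA feature n-R5-8s1, named after its values were seen, held 145, 6.82 and 6.45 units in flow-through and 226, 488 and 492 in J2 (log2 change 4.22 ± 0.98, adjusted p = 0.0247). It lay on the other side from the 18S-like and mitochondrial rRNA features. However, n-R5-8s1 passed the filter only through J2, so its direction was built into the selection. Its call was kept under 2 of 6 omissions of a library. In total 32 features, most of them named as 5S rRNA, shared 1 value per library, with means of 15.0 units in flow-through and 33.1 in J2, and none of them was called. The RNA of RNase P, Rpph1, fell from 6930, 1999 and 1267 units to 126, 495 and 528 (log2 change -3.01 ± 0.74, adjusted p = 0.0384). Its relative Rmrp, the RNA of RNase MRP, held 4461, 6338 and 4049 units against 261, 1221 and 1312 and just missed the threshold (log2 change -2.70 ± 0.70, adjusted p = 0.0561). Of the 6 omissions of a library, the call on Rpph1 was kept only without flow-through replicate 3. Quantile normalization ended it (adjusted p = 0.136), and rescaling to a common total turned the change to 1.22 (adjusted p = 0.134). Of 7 spliceosomal RNAs tested, none was called. The U2 gene Rnu2-10 held 3207, 1269 and 1017 units in flow-through and 676, 835 and 1155 in J2, which overlap.

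Cytosolic ribosomal protein mRNAs were the largest group among the higher calls. Of 87 in the table, 82 were members, of which 6 rose and none fell, and 34 lay wholly above against 2 wholly below flow-through. Of all members 0.516% rose and 0.355% fell, and 8.89% lay wholly above and 12.9% wholly below. Over the 61 measured in both fractions the median log2 change was 1.22, against 0.12 for all 2230 such genes, with 23 wholly above and 1 wholly below. Among the 2230 genes, 10.9% lay wholly above and 7.09% wholly below. Their summed level was 2054 to 3626 units in flow-through and 4527 to 10020 in J2, so the sums did not overlap. The 6 calls were Rps24, Rps27a, Rpl14, Rps3, Rps15 and Rpl10l, the last a retrogene copy expressed in male germ cells. Rps3, Rps15 and Rpl10l are named because they complete this count. Rps27a, Rps3, Rps15 and Rpl10l passed the filter only through J2, so their direction was built into the selection.

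Rps24, whose protein is part of the small subunit, held 14.8, 23.2 and 71.6 units in flow-through and 221, 269 and 727 in J2 (log2 change 3.54 ± 0.76, adjusted p = 0.0136, limma). The large-subunit gene Rpl14 held 11.8, 26.5 and 9.01 units against 82.9, 227 and 256 (log2 change 3.48 ± 0.89, adjusted p = 0.0498). In Rps27a, which encodes a ubiquitin fusion, the values were 0, 14.7 and 3.14 units and 161, 90.9 and 83.1 (log2 change 4.74 ± 1.10). The germ-cell copy Rpl10l held 0, 8.94 and 12.2 units against 30.6, 140 and 164. Not every member moved. Rpl41, one of the most abundant, held 212, 104 and 65.7 units in flow-through and 103, 122 and 192 in J2, which overlap (log2 change 0.24 ± 0.71). The calls on ribosomal protein genes were held by 1 to 3 of the 6 omissions of a library, and pseudogene copies could share their reads.

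Translation factor mRNAs, which like those of ribosomal proteins are abundant, did not follow them. All 21 were members, none was called, and the median log2 change was -0.09. Eef1a1, the elongation factor that delivers tRNA, held 783, 703 and 803 units in flow-through and 1201, 1019 and 1670 in J2 (log2 change 0.74 ± 0.56). The translocation factor gene Eef2 lay on the other side, with 447, 338 and 233 units against 155, 97.2 and 109 (log2 change -1.47 ± 0.63, adjusted p = 0.289). Srp14, for a subunit of the signal recognition particle, rose from 14.2, 15.1 and 14.5 units to 71.3, 297 and 391 (log2 change 3.71 ± 0.93, adjusted p = 0.0452). Mitochondrial ribosomal protein mRNAs gave 44 members, no call and a median of 0.64, which became -0.06 over the 7 measured in both fractions.

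Nuclear respiratory chain and ATP synthase subunits gave 66 members of 83, of which 2 rose and none fell. Of all members 0.516% rose and 0.355% fell. Cox6c, a subunit of cytochrome oxidase, held 23.6, 3.81 and 0 units in flow-through and 37.5, 119 and 224 in J2 (log2 change 4.37 ± 1.10, adjusted p = 0.0452). The ATP synthase gene Atp5j held 0, 16.1 and 5.67 units against 55.7, 108 and 271 (log2 change 4.62 ± 1.11, adjusted p = 0.0325). Atpif1, the inhibitor of that enzyme and named after its values were seen, rose from 5.61, 7.60 and 12.2 units to 68.0, 118 and 425. Coq9, for ubiquinone synthesis, held 1.23, 1.23 and 0.684 units in flow-through and 31.4, 45.2 and 393 in J2 (log2 change 5.37 ± 1.31), and J2 replicate 3 stood well above the other two. The calls on Cox6c and Atp5j were both lost without flow-through replicate 3, J2 replicate 2 or J2 replicate 3, that on Cox6c also without flow-through replicate 2 and that on Atp5j without flow-through replicate 1. The list's median was 1.38 over all members and 0.69 over the 34 measured in both fractions, of which 3 lay wholly above and 2 wholly below. Of all 2230 genes measured in both fractions, 10.9% lay wholly above and 7.09% wholly below. Cox6c, Atp5j, Atpif1 and Coq9 passed the filter only through J2, so their direction was built into the selection.

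The proteasome gave 32 members of 39 genes and 1 call. Psmb1, a subunit of its catalytic core, held 7.10, 7.68 and 5.71 units in flow-through and 122, 179 and 460 in J2 (log2 change 4.80 ± 0.92, adjusted p = 3.13e-03, limma). The call was kept in 5 of 6 omissions and lost without J2 replicate 3 (adjusted p = 0.0582). Psmb1 passed the filter only through J2, so its direction was built into the selection. Among the 20 subunits measured in both fractions, 9 lay wholly above and none wholly below flow-through, with a median of 1.26. The shares over all 2230 such genes were 10.9% and 7.09%. Psmc2 held 10.5, 14.3 and 23.0 units against 45.7, 109 and 406 without passing (adjusted p = 0.173), and Psmd2 did not separate at all (log2 change -0.02 ± 0.70). The summed level of the list was 648 to 697 units in flow-through and 1286 to 2374 in J2.

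**Figure D3:**
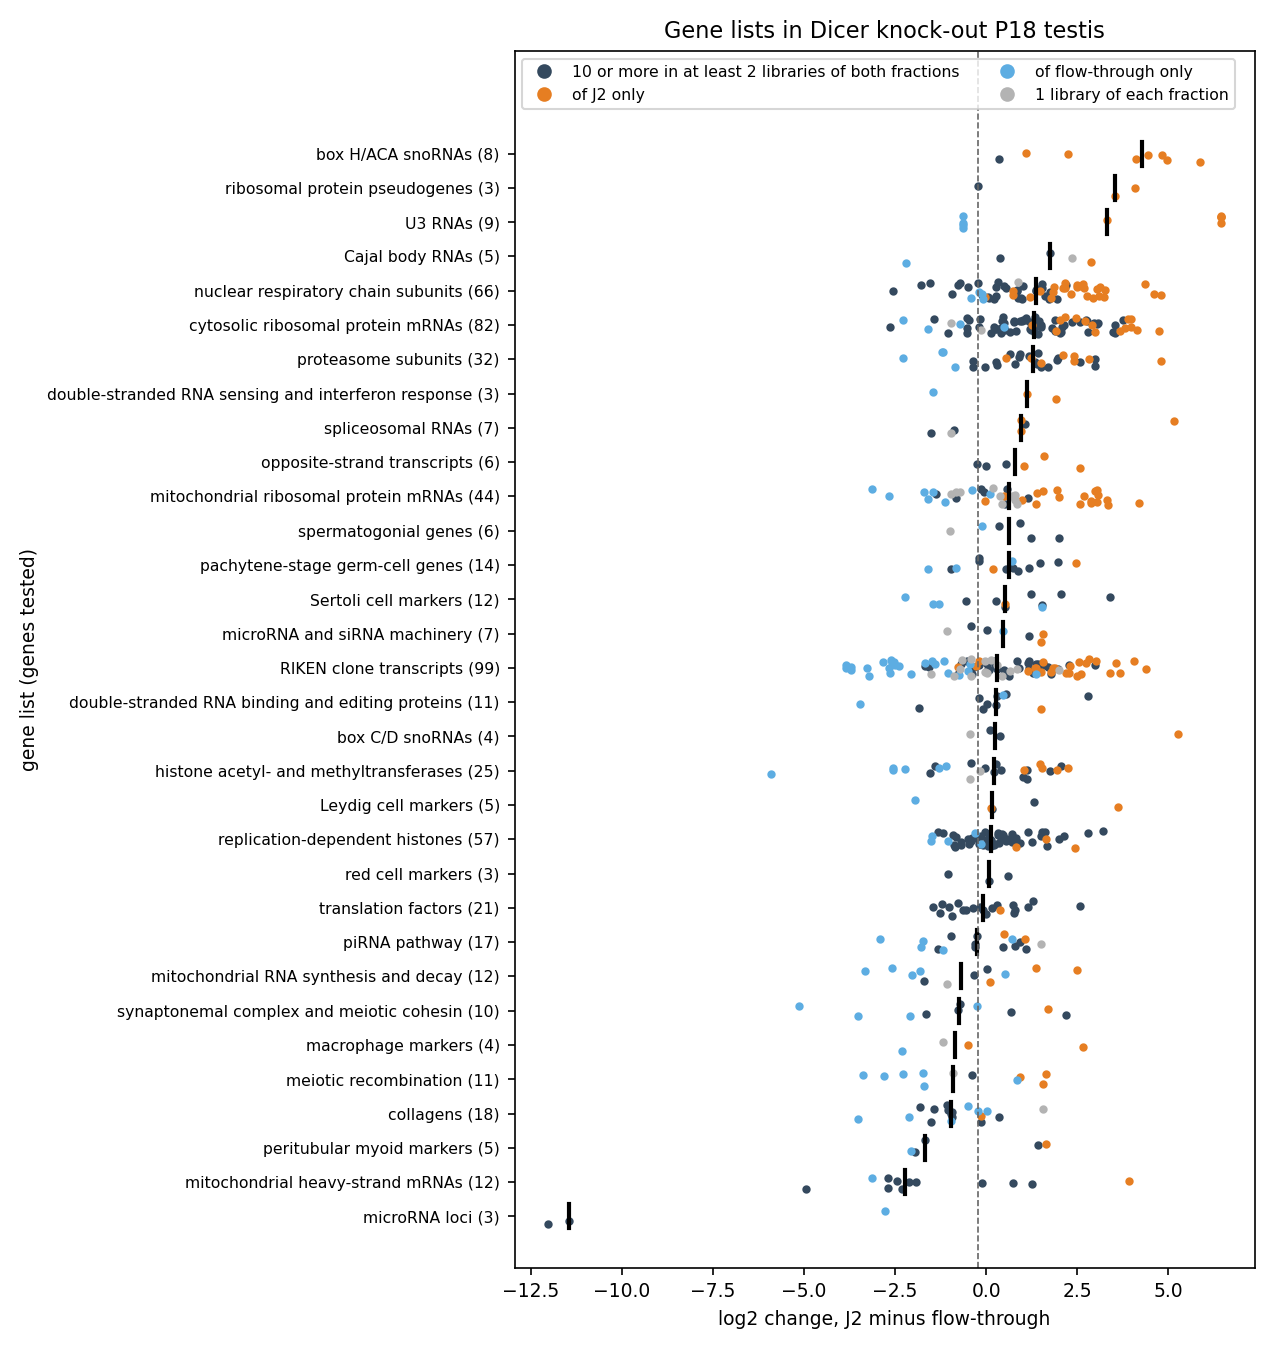
Log2 change (J2 minus flow-through) of each member of the gene lists with at least 3 genes tested, coloured by how the gene passed the filter; black bars are list medians and the dashed line is the median of all 6200 genes, -0.22. The list of dominant features is not shown. Ribosomal protein, respiratory chain and proteasome genes have medians of 1.31, 1.38 and 1.29, or 1.22, 0.69 and 1.26 over genes measured in both fractions, and the heavy-strand mitochondrial mRNAs one of -2.22.

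The remaining higher calls had no common function among the lists. Those named in this paragraph passed the filter only through J2, so their direction was built into the selection. Cdc5l, a splicing factor, held 1.71, 4.87 and 6.88 units in flow-through and 138, 307 and 91.7 in J2 (log2 change 4.98 ± 1.07, adjusted p = 0.0132) and was lost when flow-through replicate 1 or J2 replicate 2 was left out (adjusted p = 0.0757 and 0.118). Aldh16a1, of the aldehyde dehydrogenase family, held 0, 0.0566 and 0 units against 11.9, 76.8 and 95.2 (adjusted p = 0.0115), a call lost without flow-through or J2 replicate 3 (adjusted p = 0.0518 each). Amd1, for polyamine synthesis, held 0, 0 and 16.9 units against 124, 58.0 and 123 (adjusted p = 0.0452). Tceal8, Pfdn1, Pdcd5, Lrrc49 and Spata33 also rose, with log2 changes of 4.38 to 5.47. Rpa3, a subunit of the single-strand DNA binding complex, was listed at 0 in flow-through and held 19.3, 15.5 and 13.1 units in J2, and Arl4a rose by a log2 change of 3.21; both are named after their values were seen.

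A pair of higher calls, both measured in both fractions, encode parts of the axoneme, the motor core of cilia and sperm tails. Dnah8, a dynein heavy chain, held 19.97, 60.6 and 74.8 units in flow-through and 351, 274 and 344 in J2, a change of 2.81 ± 0.69 on the log2 scale (adjusted p = 0.0384, limma). Rsph3a, a radial spoke protein, held 15.0, 30.5 and 44.6 units against 202, 273 and 397 (log2 change 3.31 ± 0.75, adjusted p = 0.0228). The fractions were well apart for both, but the call on Dnah8 was lost under each omission of a library and that on Rsph3a under 4 of 6. Dnah8 and Rsph3a are both named after their values were seen, so the function they share was also picked afterwards. Polr2b, for the second subunit of RNA polymerase II, had the largest upward change with separated values among genes measured in both fractions, with 9.31, 10.7 and 15.4 units in flow-through and 306, 149 and 1130 in J2. It did not pass (log2 change 4.89 ± 1.30, adjusted p = 0.0602). Mif4gd, a translation initiation regulator (33.3, 60.5 and 1.54 units against 83.2, 724 and 217, adjusted p = 0.0665), and the RefSeq small nucleolar RNA Gm23442 (17.5, 21.5 and 15.8 against 133, 241 and 288, adjusted p = 0.065) were also above without passing, as was Gm26083 (adjusted p = 0.112).

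Of nuclear protein-coding genes 5 fell, among them Lars2. The other ones, Kat6b, Sycp1, Mical3 and Slc35e1, passed the filter only through flow-through, so their direction was built into the selection. Kat6b, a histone acetyltransferase, held 40.6, 114 and 237 units in flow-through and 0.939, 1.79 and 0 in J2 (log2 change -5.90 ± 1.10, adjusted p = 2.29e-03). It was the only one of 25 acetyl- and methyltransferase genes to be called, beside 0.355% of all members called lower. The list's median was 0.23, and the call on Kat6b was lost without flow-through replicate 3 (adjusted p = 0.0539). Sycp1, the transverse filament of the synaptonemal complex that joins homologous chromosomes, held 62.2, 137 and 453 units in flow-through and 6.32, 0.112 and 10.3 in J2. Its log2 change of -5.13 ± 1.27 passed (adjusted p = 0.0417) but was lost under each omission of a library. Mical3, of the cytoskeletal monooxygenases, held 49.1, 5.88 and 56.0 units in flow-through and was listed at 0 in J2 (adjusted p = 0.0249). Slc35e1, a solute carrier, held 68.9, 8.58 and 24.4 units against 0, 0.52 and 0 (adjusted p = 0.0417). Rescaling to a common total kept the sign of Kat6b, Sycp1, Mical3 and Slc35e1 and ended all 4 calls (adjusted p = 0.0511 to 0.337).

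Other meiotic genes were not called. Of 10 synaptonemal and cohesin genes tested, Sycp1 was the 1 that fell, beside 0.355% of all members. Sycp2 held 134, 56.0 and 52.2 units in flow-through and 10.7, 37.5 and 178 in J2, which overlap, and Stag3, a meiotic cohesin, held 149, 135 and 94.6 against 79.9, 52.4 and 102. Syce1 lay on the opposite side to Sycp1, with 76.1, 21.5 and 113 units in J2, all above its flow-through values (adjusted p = 0.299). Neither the 11 recombination genes nor the 17 piRNA pathway genes gave a call, and their medians were -0.90 and -0.24. Of 14 genes of pachytene-stage germ cells none was called and 3 lay wholly above flow-through, beside 8.89% of all members. The lactate dehydrogenase gene Ldhc held 157, 134 and 99.4 units against 427, 475 and 634 (log2 change 1.97 ± 0.61, adjusted p = 0.122). Ddx25, an RNA helicase of these cells, held 32.5, 49.5 and 42.8 units against 122, 132 and 99.5 (log2 change 1.49 ± 0.70).

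Histone mRNAs of the replication-dependent class end in a stem-loop instead of a poly(A) tail and were abundant in both fractions. Of 66 in the table, 57 were members and none was called, with a median log2 change of 0.14. Hist1h2ba, the germ-cell H2B variant, held 9029, 6095 and 5880 units in flow-through and 1739, 5354 and 6102 in the bound RNA. The fractions overlapped, with J2 replicate 1 low. The same library was the lowest of the 6 for Hist1h4n (236 units, against 557 to 1173 elsewhere) and Hist3h2a (379 against 991 to 1867).

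The proteins that make, bind, edit or sense double-stranded RNA gave no call at the RNA level. Of 12 genes of the microRNA and siRNA machinery 7 were members. Ago2, the slicing Argonaute, held 41.1, 15.3 and 26.2 units in flow-through and 18.7, 9.26 and 38.2 in J2, and Drosha, which cuts primary microRNAs, held 5.97, 18.0 and 12.3 against 32.1, 40.8 and 13.5. Among 11 of 20 genes for double-stranded RNA binding and editing, Son, which binds RNA and splicing factors, lay wholly above with 714, 85.7 and 215 units in J2 against 22.0, 40.7 and 41.4 (log2 change 2.79 ± 0.78, adjusted p = 0.0775). The helicase gene Dhx9 overlapped (log2 change 0.27 ± 1.07). Of 27 genes for sensing and the interferon response 3 were members, and Ifit2, Ifit3, Mx1, Mx2, Oas1a and Usp18 were listed at 0 in all 6 libraries.

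Transcripts from opposite strands could pair, and their genes were therefore examined as a set. Of 270 annotated opposite-strand transcripts 6 were members and none was called. Cep83os held 27.5, 29.5 and 27.5 units in flow-through and 44.3, 17.6 and 16.2 in J2. Only members with a known strand could be compared for overlap. By RefSeq coordinates, 355 of these overlapped another on the opposite strand, and 3 of the 355 rose while none fell. Of the 4541 that did not overlap one, 17 rose and 7 fell, beside 0.516% and 0.355% of all members. The overlapping genes had a median log2 change of 0.08 over the 121 measured in both fractions, against 0.13 for the 1624 without such an overlap. J2 lay wholly above flow-through for 11.57% of the former and 10.53% of the latter. Of the 183 overlapping pairs, 4 had both partners wholly above and 3 both wholly below. Long noncoding RNAs (45 members by RefSeq) gave no higher call and 2 lower ones, beside 0.516% and 0.355% of all members. The 2 were AY036118 and Gm15564, which passed the filter only through flow-through, so their direction was built into the selection. Over the 13 long noncoding RNAs measured in both fractions the median log2 change was 0.51. Malat1, a nuclear lncRNA, overlapped between fractions at 85.6 to 324 and 79.2 to 134 units.

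Gene span varied with the change among protein-coding genes. Of the 2122 measured in both fractions, those under 5 kb (275 genes) had a median log2 change of 0.58 and those over 100 kb (229 genes) one of -0.18. J2 lay wholly above flow-through for 23.3% of the short genes and 6.11% of the long ones. Spearman's rho between span and change was -0.208 across these genes, which share libraries and are no independent replicates, and -0.181 over the 2062 that encode no ribosomal protein. The relation was not shared by all library pairs. It was 0.104 for the difference of the pair numbered 1, -0.223 for 2 and -0.273 for 3. Omitting 1 library gave -0.123 (without flow-through replicate 3) to -0.292 (without flow-through replicate 1). Among protein-coding genes matched in RefSeq, the 24 that rose had a median span of 6.28 kb and the 5 that fell one of 118 kb, against 28.4 kb for all 5926 tested; the short mitochondrial genes mt-Atp8 and mt-Nd1, which also fell, had no match and are not in this comparison. Most of the 24 passed the filter only through J2, and all of the 5 except Lars2 only through flow-through. Their direction was therefore built into the selection, and their spans are a description. The span includes introns, and the length of the RNA was not measured.

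**Figure D4:**
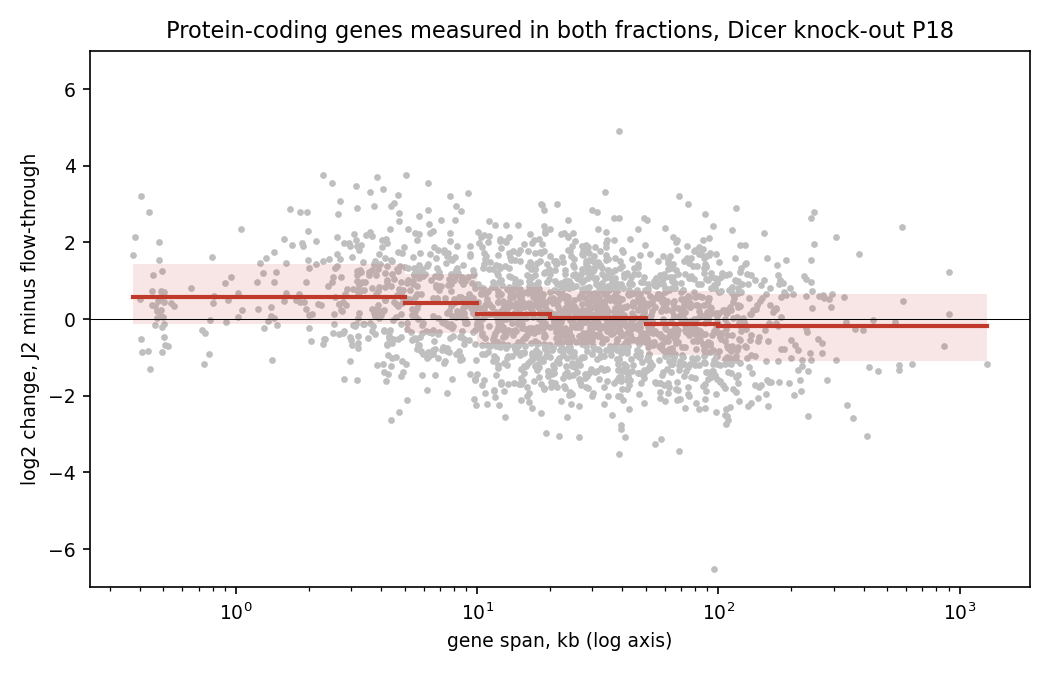
Log2 change (J2 minus flow-through) of the 2122 protein-coding genes measured in both fractions against gene span in kb on a log axis; red lines are medians and shaded bands the middle 50% within each span class. The median goes from 0.58 under 5 kb to -0.18 over 100 kb, and the bands of all classes overlap.

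Marker genes of the other testis cells were checked because whole tissue was used; in bulk samples fewer cells of a type and less RNA per cell cannot be told apart. Sertoli markers were present in both fractions, and 12 of 17 were members with no call. Of the 12, 2 lay wholly above flow-through and 1 wholly below, beside 8.89% and 12.9% of all members. By the filter, 4 of the 12 passed only through flow-through and 1 only through J2. The summed level of the Sertoli markers was 459 to 524 units in flow-through and 801 to 1083 in J2, with Inhba at 0 throughout. Aard held 37.4, 34.3 and 58.1 units against 178, 180 and 182 (log2 change 2.07 ± 0.90, adjusted p = 0.295) and Cst12 held 3.25, 21.1 and 11.7 against 82.7, 104 and 155 (adjusted p = 0.102). The secreted chaperone gene Clu overlapped at 186 to 232 and 208 to 270 units. Leydig markers (5 of 9 members) summed to 53.9 to 95.1 units in flow-through and 93.0 to 146 in J2. Peritubular myoid markers (5 of 7) summed to 303 to 520 and 118 to 560 units, and their leading gene Acta2 lay below in J2 with 56.3, 71.4 and 134 units against 367, 197 and 254 (adjusted p = 0.325). Macrophage (4 of 9), endothelial (2 of 7) and red cell markers (3 of 5) and 18 of 44 collagens also gave no call, and Cd14 was at 0. Late spermatid genes were scarce, with 2 of 20 members and Prm1, Tnp1 and Odf1 at 0 in all 6 libraries. The part of these cells in the results was not tested.

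The same contrast in wild-type P18 testis rests on 6 other libraries and was fitted with the same estimate of the spread. It called 74 of the 6200 genes higher (1.19%) and 57 lower (0.919%). Of the knock-out's 32 higher calls 16 also passed in wild type, and of its 22 lower calls 19. Every one of the 54 had the same sign in wild type. The interaction of genotype and fraction, which tests whether the J2 difference itself depends on the knock-out, gave 0 calls among 6200 genes (0%) with limma, 300 genes at an unadjusted p under 0.05 and a lowest adjusted p of 0.985. A difference between the genotypes was thus not detected at this replication, which does not show that there was none.

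Individual genes ranged from close to far apart. Gm24601 held 3.49, 0.693 and 6.89 units in wild-type flow-through and 227, 447 and 242 in J2, a log2 change of 6.22 beside 6.93 in the knock-out. Psmb1 had a log2 change of 4.85 beside 4.80, Kat6b one of -5.13 beside -5.90, and mt-Nd1 one of -2.998 beside -2.70. Sycp1 had a wild-type change of -0.53 ± 1.27 beside -5.13, with 0, 131 and 117 units in wild-type flow-through and 15.4, 30.6 and 8.98 in J2. One wild-type flow-through library was thus at 0, and the interaction did not pass (adjusted p = 0.985). Mical3 and Slc35e1 were at no more than 2.996 and 1.88 units in every wild-type library, and Rpa3 and Aldh16a1 at no more than 0.254 and 2.40, and the interaction did not pass for any of these 4 genes (adjusted p = 0.985 each). Wild-type flow-through replicates 1 and 3 held an estimated 1.73 and 0.998 M reads, so that 10 units stood for about 1.68 and 1.2 reads, and values this low lie below the estimated worth of 1 read in both. That limit concerns flow-through only. Wild-type J2 held 0, 0.254 and 0 units of Rpa3 and 0, 0 and 2.40 of Aldh16a1, and there 10 units stood for an estimated 23.5 to 50 reads. Why these 2 genes were low in wild-type J2 was not tested. Ribosomal protein mRNAs had a median of 1.85 in wild type beside 1.31, heavy-strand mitochondrial mRNAs -2.47 beside -2.22, and proteasome subunits 1.04 beside 1.29.

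**Figure D5:**
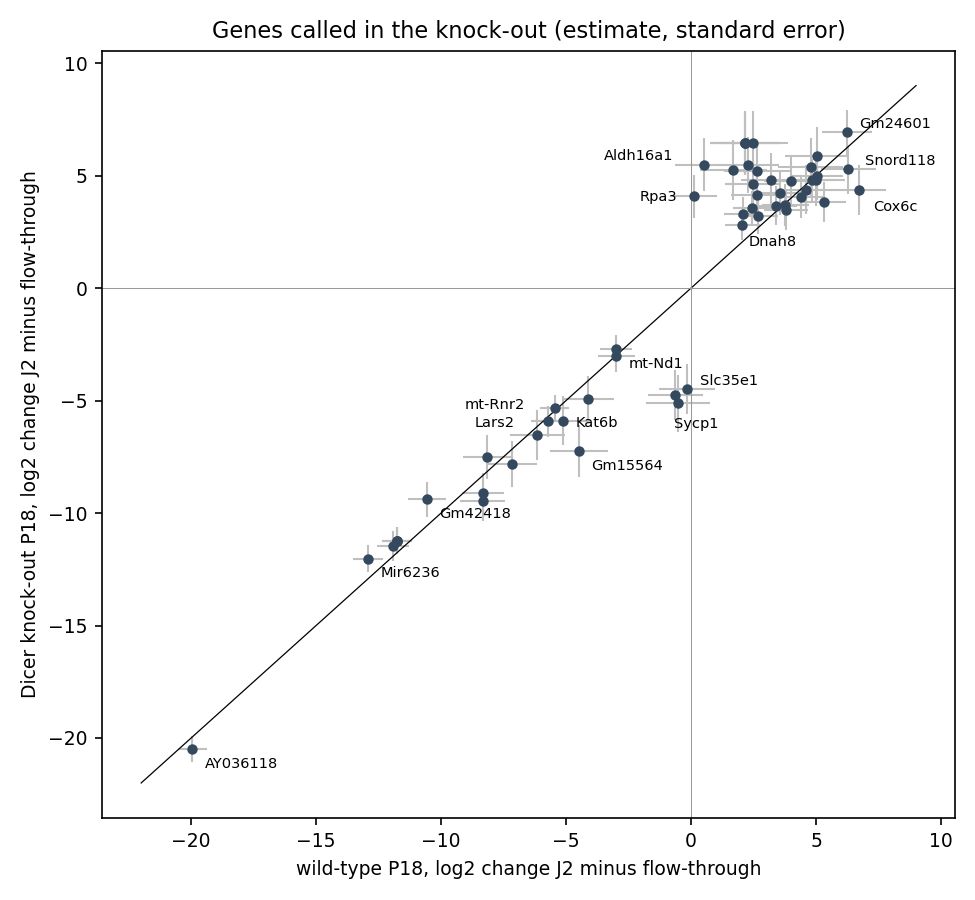
Log2 change (J2 minus flow-through) of the 54 genes called in Dicer knock-out P18 testis, in wild type (horizontal) and knock-out (vertical), with standard errors from the fit; the line marks equal changes. All 54 have the same sign in both, and Sycp1, Slc35e1, Rpa3 and Aldh16a1 lie near 0 in wild type.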

How the data were processed

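The authors deposited normalized counts, a signal with 1 value per gene and library, for 35920 Ensembl genes. The submitters' processing notes name FastQC, Trimmomatic, Salmon, DESeq2 and mm10, without roles or versions, and libraries were strand-specific (NuGEN Ovation SoLo) per the labels' protocols. Of the identifiers, 35446 matched a symbol. The scaling is close to equal medians between fractions, so it cannot show a shift of all genes. Values of 1 read were approximated from low values that several genes share and their multiples up to 20, leaving out 152 features with values identical to another's in several libraries.

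Genes with a value of at least 10 in at least 2 of the 6 knock-out libraries entered limma 3.58.1 (R 4.3.3) on the scale log2(value + 1). The model had 6 group means over all 16 libraries, with trended empirical Bayes variances, two-sided tests and p-values adjusted after Benjamini and Hochberg (threshold 0.05). Changes on that scale understate those of low genes. The interaction was fitted alike. The script was tested on simulated data.

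The genes and lists were chosen with earlier results of these data known. Named are up to 20 calls per direction, the 10 largest separated changes per direction among genes measured in both fractions, and up to 4 highest members per list. Coordinates and spans are RefSeq's (GRCm38.p6, the assembly mm10 names), for 6099 of the 6200 genes. A strand was available for only part of these, and genes without one were left out of the opposite-strand overlap. Alternatives are given in the closing section. Same-coded J2 and flow-through libraries did not deviate together (r = -0.034, 0.033 and 0.031), so no pairing was used.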

Additional observations from a re-analysis of the deposited data

How the results depend on the processing

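The 32 higher and 22 lower calls depended on the settings as follows, and the cause was not tested. With a pseudocount of 10 there were 57 higher and 30 lower calls, and with 0.5 there were 22 and 20. A filter at 50 gave 57 and 33 of 1169 genes, no filter 8 and 20 of 24220, and only genes measured in both fractions 3 and 12 of 2230. Quantile normalization gave 43 and 26, and the 6 knock-out libraries fitted alone 41 and 26. Rescaling to a common total, counted without the genes encoded in mitochondrial DNA, gave 2928 and 12. Among them were all 32 higher calls and 12 of the lower ones. Leaving out 1 knock-out library gave 3 to 36 higher and 16 to 20 lower calls. Of the higher calls 1 and of the lower calls 15 passed under all 6 omissions, while 4 higher and 1 lower passed under none. The library codes are shared by J2 and flow-through but did not pair them. With the code as a replicate block there were 30 higher and 23 lower calls, 26 and 21 of them shared with the fit without it, and 0 interaction calls. Polr2b (adjusted p = 0.0454), Mif4gd (0.0458) and Rmrp (0.0203) passed with the block in limma. The interaction gave 0 calls in every alternative run. Signs of called genes changed for Lars2 (0.70), mt-Rnr2 (0.80) and mt-Rnr1 (0.77) under quantile normalization and for Rpph1 (1.22) and mt-Nd1 (1.51) after rescaling, relative to a median of all genes of 2.79 there. Rescaling also called 30 named genes, and quantile normalization 1, with the sign opposite to an uncalled change. Depth limits flow-through most, where 10 units stand for at most 4.9 reads.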

Other observations

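Several members of the gene lists had a library far from the others. Kdr, an endothelial receptor gene, held 19.8, 0 and 0 units in flow-through and 44.2, 21.7 and 10.5 in J2 (log2 change 3.05 ± 1.29, adjusted p = 0.284, limma). The nuclear lncRNA Neat1 held 10.4, 0.217 and 1.37 units against 12.3, 12.3 and 385 (log2 change 3.67 ± 1.61, adjusted p = 0.299). Col3a1, a collagen of stromal cells, held 315, 125 and 662 units in flow-through and 103, 268 and 1933 in J2, and J2 replicate 3 was the highest of the 6 libraries for it. The same library was the highest for the macrophage gene Lyz2 (142 units, against 22.9 or less elsewhere) and the smooth muscle genes Myl9 (229 units) and Tagln (158 units).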
